A study of Mus musculus with 2 samples.

Results

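TCF1 intervals in these γδ thymocytes were often packed close together, and this account describes the places where they were packed most densely. A dense domain was a stretch of an autosome in which 10 or more listed intervals followed each other with gaps of at most 10000 bp. Members were chosen by the positions and the number of intervals, and their scores played no part in the choice. The densest place of the map, on chromosome 10, was left out as a hotspot of its own (intervals starting from 79000001 to 81000000). This left 21002 member intervals in 1147 dense domains, which was 20.9% of the 100455 autosomal intervals outside the hotspot and 20.1% of the 104683 intervals in the whole list. Of the 1162 dense domains on the 19 autosomes, 15 lay wholly inside the hotspot and 2 crossed its border. The 28 members of those 2 were kept as intervals, and values per domain were taken over the 1145 domains with no interval in the hotspot.

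TCF1 is the HMG-box transcription factor encoded by Tcf7, which binds DNA in the minor groove and bends it. In thymocytes it acts from the earliest T cell progenitors onwards, and it can partner β-catenin or Groucho-related corepressors. Sites of transcription factor binding often lie in groups along a chromosome, as where several enhancers serve 1 gene or where active genes are neighbours. A list of intervals from chromatin immunoprecipitation followed by sequencing (ChIP-seq) shows such grouping by position and does not show which gene an interval acts on.

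The study held 2 libraries, 1 of TCF1 ChIP and 1 of input chromatin without antibody. Both came from C57BL/6 mice without TCRβ (TCRbeta KO) that carried a Sox13 transgene (Sox13tg+) and a heterozygous ECFP knock-in at Sox13 (Sox13 ECFP KI/+), so no library stands for a wild-type thymus. For the TCF1 library, 1000000 thymic γδ T cells positive for CD24, with little or no CFP, were sorted, fixed with 1% formaldehyde and amplified through 17 PCR cycles. The sources used here do not give the promoter of the transgene, the number of animals or their age, and the input library was not analysed here. The interval list had 1 score per interval and no read counts, so its depth is unknown, and no background stands beside any value. A single library allows neither replicates nor a test, and the ranges in brackets after a median, ratio or share of a class of intervals are 95% intervals, which cover counting error only and treat neighbouring intervals as independent. Positions are in mm9, counted from 1. Genes at these positions were not analysed here, so the cell type was not checked against its marker genes.

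Dense domains were mostly of moderate size. The median domain held 15 intervals over 43.3 kb (10th to 90th percentile 10 to 30 intervals and 24.5 to 84.0 kb). There were 561 domains with 10 to 14 intervals, 256 with 15 to 19, 203 with 20 to 29, 94 with 30 to 49 and 31 with 50 or more. Together they spanned 57.9 Mb, of which the intervals themselves covered 5.59 Mb, or 9.67%. In the median domain 9.43% of the span was covered (9.22 to 9.73%), so most of a dense domain lay between listed intervals. Members held 23.2% of the summed score of autosomal intervals outside the hotspot, and 24.8% with heights above 132 left out.

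The domains were spread unevenly over the genome. Members made up 35.5% of the intervals on chromosome 17, 33.1% on chromosome 11, 30.3% on chromosome 7 and 29.6% on chromosome 5. The share was 6.34% on chromosome 1, 6.47% on chromosome 13 and 7.71% on chromosome 3, so it differed 5.60-fold between autosomes. Chromosomes 4, 5, 7, 11 and 17 held 52.1% of the members, and chromosome 11 had the most dense domains, 142, against 16 on chromosome 13. Members fell in 471 of the 2414 windows of 1 Mb that held an interval (19.5%), and the 100 windows with the most members held 54.9% of them. From 1 dense domain to the next on the same chromosome the median distance was 157550 bp, and 453 of 1126 such distances (40.2%) were at most 100 kb.

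Inside dense domains the intervals stood close, with a wide range of gaps. The median gap was 1750 bp (1700 to 1800), with quartiles at 650 and 4000 bp, over 19829 gaps. Gaps of at most 1000 bp made up 35.6%, gaps of at most 200 bp 8.65%, and gaps over 5000 bp 17.9%. In 240 places the gap was 50 bp, a single step of the grid on which intervals were listed. Domains of 2 to 9 intervals had a median gap of 2750 bp and 31.0% of gaps at most 1000 bp. A single-interval domain has no inner gap, and its nearest neighbour lay a median of 22350 bp away. These values follow in part from the rule, which used the gaps. The borders also depended on the rule, because beyond the ends of a dense domain the next interval came after a median of 15275 bp, and within 20 kb at 70.2% of 2290 ends.

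Members were higher than single intervals but hardly wider. Height is the score per 50 bp of interval, used because the score grows with width. The median height was 41.1 in dense domains (40.9 to 41.4) and 27.0 in the 28409 single intervals (26.7 to 27.2), a ratio of 1.52 (1.5 to 1.55). The 51044 intervals in domains of 2 to 9 lay between, at 34.7 (34.5 to 34.8). The median width was 200 bp in all 3 classes, with quartiles at 150 and 300 bp, and the mean width was 267 bp for members and 258 bp for singles. Intervals of 1 kb or more made up 0.971% of members (0.843 to 1.11%) and 0.817% of singles (0.715 to 0.928%). These ranges overlapped in part, and each share lay outside the range of the other. In domains of 2 to 9 intervals the share was above both, at 1.07% (0.980 to 1.16%).

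Members were higher than singles over most of the distribution, and the ratio was largest among low heights. The 10th percentile of height was 23.4 for members and 7.56 for singles (ratio 3.10). The lower quartiles were 31.6 and 15 (ratio 2.11) and the upper quartiles 51.1 and 39.8 (ratio 1.28). The 99th percentiles were 78.6 and 76.4 (ratio 1.03). In units of height, members were above singles by 15.9 at the 10th percentile, 16.6 at the lower quartile, 14.1 at the median, 11.3 at the upper quartile and 2.25 at the 99th percentile. An interval was counted as low below 11, the 10th percentile of autosomal intervals outside the hotspot, where 10% fall by construction. Only 333 members were low (1.59%, 1.42 to 1.76%), against 4832 singles (17.0%, 16.6 to 17.5%). Above the 90th percentile, a height of 57.1, where 10% fall again, stood 2979 members (14.2%, 13.7 to 14.7%) and 1942 singles (6.84%, 6.55 to 7.14%).

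**Figure D1:**
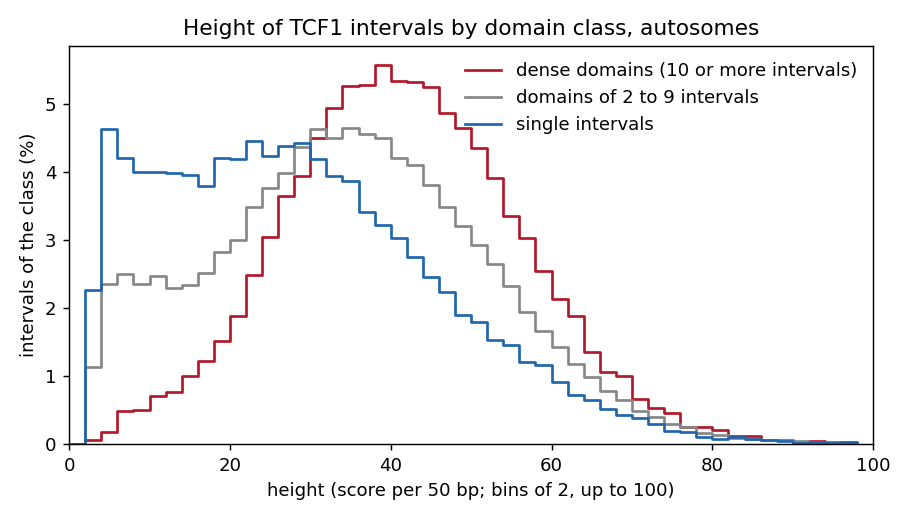
Share of intervals (percent of each class, vertical axis) by height (score per 50 bp in bins of 2, horizontal axis) for dense domains, domains of 2 to 9 intervals and single intervals on autosomes outside the hotspot. Low heights hold 17.0% of the single intervals and 1.59% of the members, and the curve of the members lies farther to the right; 21 members and 67 singles lie at or beyond the right edge of the plot.

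At the extreme end the members were few. Heights above 132 were found in 0.101% of autosomal intervals outside the hotspot, in 31 singles (0.109%) and in 67 intervals of domains of 2 to 9. Among the members there were 3 (0.0143%). All 3 lay in the same domain on chromosome 1, described below.

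The difference in height was present on each of the 19 autosomes. Their median heights ran from 37.2 to 43.0 for members and from 25.2 to 30.1 for singles, so the ranges did not overlap. The mean of these medians was 40.7 ± 1.46 for members and 27.1 ± 1.23 for singles (SD over 19 autosomes, which share 1 library and are not replicates). The ratio was smallest on chromosome 18 (1.36, from 37.9 and 27.9) and chromosome 11 (1.36, from 41.0 and 30.1) and largest on chromosome 8 (1.65, from 43.0 and 26.0). The share of low intervals was smaller among members, and the share above 57.1 larger, on 19 of 19 autosomes. Mean width was larger among members on 15 of 19.

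**Figure D2:**
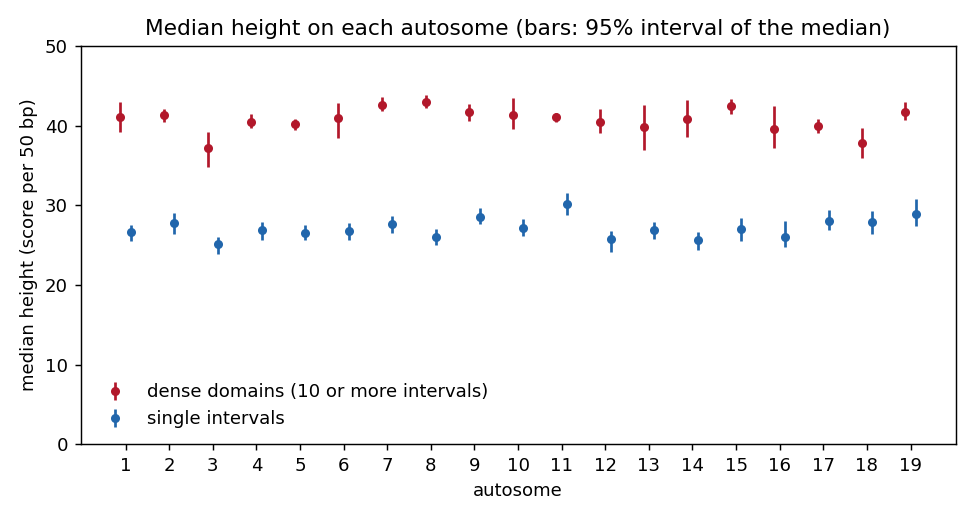
Median height (score per 50 bp, vertical axis) of member intervals and single intervals on each autosome (horizontal axis), with the 95% interval of each median as a bar. All 19 member medians, from 37.2 to 43.0, lie above all 19 single medians, from 25.2 to 30.1.

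The difference was smaller between members and singles of the same region. Singles that started in a 1 Mb window with at least 1 member had a median height of 33.4 (32.8 to 33.9, 5313 intervals), against 25.5 (25.2 to 25.8) for the 23096 singles in other windows. Set against these nearby singles, the ratio for members was 1.23 in place of 1.52. In the 435 windows with at least 5 members and 5 singles, the members had the higher median in 349 (80.2%), with a median difference of 6.33. The share of low intervals was 9.20% in nearby singles (8.44 to 10%) and 18.8% in the others (18.3 to 19.3%), against 1.59% in members. Single intervals near dense domains were therefore themselves higher than singles elsewhere, and still lower than the members.

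The height difference also depended on the width of the interval. Among intervals of 200 bp the median was 38.9 in dense domains (38.4 to 39.4, 3903 intervals) and 26.5 in singles (25.9 to 27.0, 5188 intervals), a ratio of 1.47. Between 100 and 450 bp the medians were 39.9 and 25.9, a ratio of 1.54, and between 500 and 700 bp 52.8 and 43.2, a ratio of 1.22. From 750 to 1000 bp they were 53.8 (52.7 to 55.5, 416 intervals) and 52.8 (51.2 to 54.5, 525 intervals), whose ranges overlapped, and above 1000 bp 57.5 over 175 members and 54.2 over 171 singles. Of the 19 widths from 100 to 1000 bp, members were higher at 18. The exception was 850 bp, with 51.6 over 67 members and 55.4 over 94 singles.

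**Figure D3:**
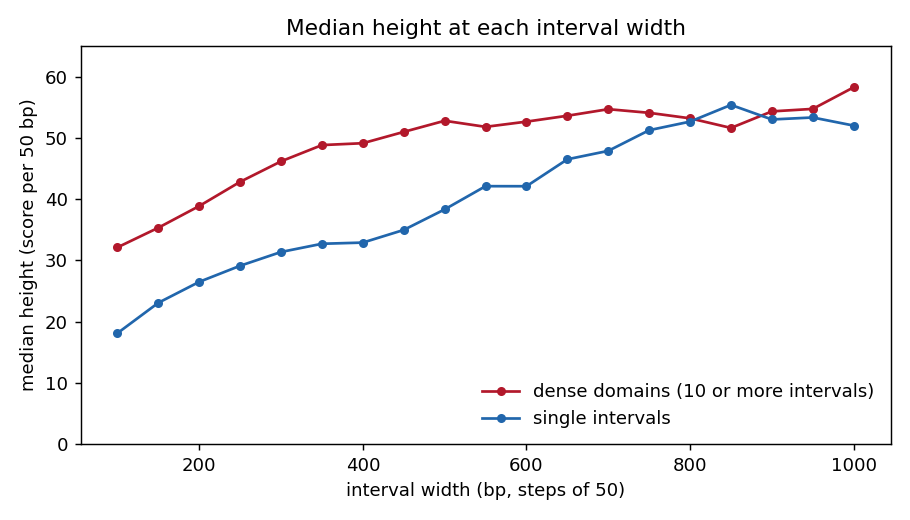
Median height (score per 50 bp, vertical axis) at each interval width from 100 to 1000 bp in steps of 50 bp (horizontal axis), for members of dense domains and for single intervals. The ratio of members to singles is largest at 100 bp (1.77), the curves lie close together from 750 to 950 bp, and at 1000 bp the values are 58.2 and 52.

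Domains with more intervals had higher ones, and most of that difference lay below the limit of 10. The median height was 32.8 in domains of 2 to 4 intervals and 38.2 in domains of 5 to 9. It was 39.8 with 10 to 14 intervals, 40.7 with 15 to 19, 42.1 with 20 to 29, 41.8 with 30 to 49 and 42.9 with 50 or more (42.1 to 43.6). The share of low intervals went from 12.2% in domains of 2 to 4 to 3.59%, 2.16% and 1.39% in the next 3 classes and 1.01% in domains of 50 or more. Just outside the limit, the 249 domains of 9 intervals had a median height of 38.8 (37.9 to 39.5). Just inside, the domains of 10 had 39.7 (38.6 to 40.6), so nothing in height marked the limit itself.

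Within a domain, heights varied more than between domains. The median spread between the quartiles of height inside a domain was 16.8, while the medians of the 1145 domains had quartiles at 37.3 and 44.5. Medians of groups vary less than single intervals even under a random grouping, so these 2 spreads are not like measures. Differences between domain means made up 14.8% of the variance of log2 height among members, with 20974 intervals in 1145 groups, and some of that share arises from the size of the groups alone. The highest interval of a domain was typically 1.63 times its median and 3.82 times its lowest. Neighbouring members were only weakly alike in height (Spearman's rho 0.11 over 19829 pairs, which overlap and share 1 library). The same figure was 0.26 over 34377 pairs in domains of 2 to 9, whose heights also had the wider range. Of the 1145 domains, 963 held an interval above 57.1 (84.1%) and 919 held no low one (80.3%). Among all members 14.2% stood above 57.1 and 1.59% were low, and the median domain held 15 intervals. The counts of domains depend on these shares and on domain size, and were not set against a random arrangement.

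Members with a close neighbour were slightly higher and also wider. The median height was 42.9 (42.2 to 43.8) where the nearest member lay within 200 bp, 42.0 (41.5 to 42.3) beyond that up to 1000 bp, 40.1 (39.7 to 40.5) up to 5000 bp and 39.1 (37.8 to 40.5) up to 10000 bp. The mean widths were 309, 269, 249 and 264 bp in the same order. Among members of 200 bp in width, the median within 200 bp was 39.3 (37.9 to 40.9) and that beyond 5000 bp was 37.0 (35.5 to 39.9), whose ranges overlapped.

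Intervals at the ends of a dense domain were slightly lower than those farther in. The first and last intervals had a median height of 38.8 (38.0 to 39.5, 2290 intervals), the next ones 39.7 and those at place 3 40.8. In domains of 20 or more intervals, the 656 end intervals had 38.5 (37.1 to 39.8), and the 4245 at the 10th place or deeper had 43.0 (42.3 to 43.5). Counted by domain, the inner intervals had the higher median in 639 and the outer 2 at each end in 505, so the pattern was a shift of the average and absent from many domains. The tallest interval of a domain was the first or last in 132 domains (11.5%), while the first and last made up a mean of 13.3% of the intervals of a domain. With the span cut into 3 equal parts, it lay in the first in 386 domains, in the middle in 380 and in the last in 379, and members as a whole were spread over these parts as 33.8%, 32.6% and 33.5%.

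**Figure D4:**
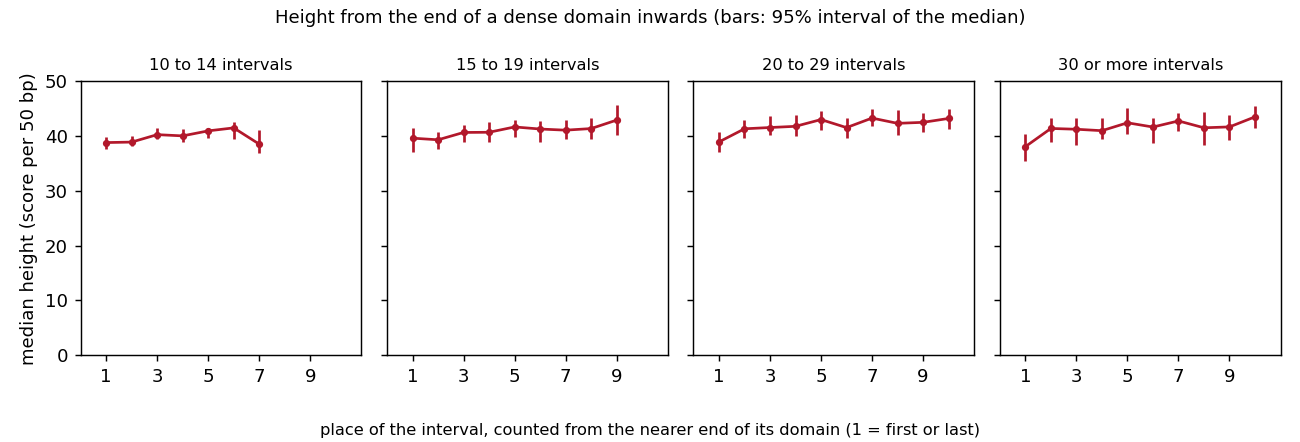
Median height (score per 50 bp, vertical axis, with the 95% interval of the median) of members by their place counted from the nearer end of the domain (horizontal axis, 1 is the first or last interval), in 4 panels by domain size. The values at place 1 lie between 38.0 and 39.6 and those farther in are mostly between 40 and 44, a small step beside the spread of individual intervals.

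The 10 domains with the most intervals ranked from 121 to 821 of 1145 by median height, and 9 of them ranked 599 or better. The fullest, at chr17:46570601-46873800, held 104 intervals over 303 kb with a lowest, median and highest height of 7.67, 40.6 and 81.2. On chromosome 5, the domain from 125483751 to 125770250 held 98 with a median of 44.9 (lowest 13.3, highest 74.5), and on chromosome 7 that from 19890101 to 20081600 held 93 with 41.0 (lowest 9.0, highest 77.3). The medians of these 3 ranked 599, 254 and 564, and over all 1145 domains the number of intervals went only weakly with median height (Spearman's rho 0.16). Chromosome 8 had a pair of large domains with higher medians, from 73266901 to 73441200 (81 intervals, median 46.0, highest 99.2) and from 74060951 to 74249250 (72 intervals, median 47.3, highest 86.3). In the first of them 27 of 81 intervals stood above 57.1, against 14.2% of all members. None was low in either domain of the pair, where the share over all members was 1.59%. The domain at chr19:5628951-5771500 (67 intervals) had the highest median of the fullest 10, 47.6, and 15.3% of its span was covered.

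The others among the fullest 10 lay between 38.1 and 42.3 in median height. They were at chr5:115044201-115318200 (80 intervals, median 40.9), chr12:109433751-109610750 (75, median 38.1), chr4:151607651-151819400 (71, median 40.9) and chr7:31210351-31394800 (66, median 42.3). On the remaining autosomes the fullest domain was smaller. It held 61 intervals on chromosome 2 (chr2:31195451-31386350), 52 on chromosome 10 (chr10:126946301-127059000) and on chromosome 15 (chr15:78707951-78847400), 47 on chromosome 11 (chr11:58841951-58953600), and 46 on chromosome 6 (chr6:52108301-52210750). Chromosome 11 thus had the most dense domains without having any of the fullest 10. The fullest on chromosome 18 (chr18:37080301-37182100) had 40 intervals, on chromosome 9 (chr9:107943251-108029950) 39, on chromosome 3 (chr3:89112251-89198750) 38 and on chromosome 1 (chr1:75370601-75458800) 37. It had 34 on chromosome 14 (chr14:55149801-55269650), 33 on chromosome 13 (chr13:55546751-55654600) and 28 on chromosome 16 (chr16:4579551-4659100). The median heights of these 12 domains ran from 36.9 on chromosome 6 to 46.1 on chromosome 1.

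The 5 domains with the highest medians held 11, 32, 12, 14 and 12 intervals, and the 5 lowest held 12, 24, 12, 11 and 11. Small size was thus not particular to the highest, since 561 of 1145 domains held 10 to 14 intervals. A median of few intervals also varies more. The highest median, 63.2, belonged to a domain at chr11:99617301-99676900 with 11 intervals, and the next, 62.0, to its neighbour from 99441851 to 99604600 with 32 intervals, 12700 bp away. Both had long gaps, with medians of 4925 and 4950 bp against 1850 bp in the median domain, and wide intervals, with median widths of 750 and 350 bp. In the smaller, heights in order along the chromosome were 58.4, 60.5, 83.0, 82.1, 86.2, 106, 26.7, 26.5, 39.0, 63.2 and 81.4. Of the 10 gaps between these 11 intervals, high and low alike, 9 were between 4450 and 7850 bp and the last was 100 bp.

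A domain at chr1:135272551-135294700 (12 intervals, median 61.5) held the 3 extreme members. These ran from 135279101 to 135280650 (height 205), from 135280851 to 135281250 (194) and from 135283151 to 135283900 (139). The first was also 1550 bp wide. The 9 other intervals of this domain had heights from 23.4 to 88.8, and 6 of the 12 stood above 57.1. Genes and copy number were not analysed at this domain. Whether the Sox13 transgene, or extra copies of any other kind, raised the 3 extreme heights was therefore not tested.

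The domain at chr2:26315101-26343500 was high throughout. Its 14 intervals had heights from 40 to 88.3 with a median of 60.4, and 9 stood above 57.1. The median width was 250 bp, and none was wider than 450 bp. The lowest interval of this domain was nearly as high as the median member. The fifth highest, at chr4:155016301-155043400, had 12 intervals between 19.1 and 93.2 with a median of 58.5.

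A small group of dense domains went the other way. In 22 of the 1145 domains (1.92%), on 11 chromosomes, the median height was below that of single intervals. These 22 held 10 to 25 intervals each and 311 in all. Of the 311, 78 were low, against 333 (1.59%) of all members. A share above that of all members follows from choosing domains by their low median. The lowest was at chr3:6297351-6307750, where 12 intervals had heights between 4.63 and 14.9 with a median of 7.37, and 10 were low. They stood in close order, with a median gap of 600 bp and 33.2% of the 10.4 kb span covered. It was followed by a domain at chr6:114442851-114491300, with 24 intervals between 2.75 and 21.0, a median of 7.62 and 17 low ones. Not a single interval of either reached the median height of singles. Next lowest were at chr8:57975001-58007800 (median 10.2), chr6:47689901-47728150 (10.7) and chr3:93009901-93030000 (12.2). Among all dense domains a median below that of singles was thus rare. It also occurred among the most covered domains, since the lowest, on chromosome 3, ranked 7 of 1145 by share covered.

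Coverage of the span varied 16-fold among dense domains and went only loosely with height (Spearman's rho 0.29 over 1145 domains of 1 library). Coverage includes the widths of the intervals, and wider members were higher, with medians of 32.1 at 100 bp and 52.8 at 500 bp. The rho therefore does not separate packing from width. The largest share, 49.1%, was at chr18:20768051-20787900, where 11 intervals included 1 of 2700 bp and 1 of 2050 bp, the median gap was 250 bp and the median height was 26.5 (lowest 7.42, highest 38.3). This median was below the 27.0 of single intervals. The next shares were 39.3% at chr4:109647251-109657950 (median height 47.7), 37.0% at chr11:21892701-21904850 (43.0), 35.7% at chr14:22800651-22814100 (29.8) and 35.6% at chr17:31981701-31992800 (43.2). Of these 5 compact domains, 3 had a median height above that of all members and 2 were below it. The smallest shares were 3.08% and 3.12% on chromosome 5 (chr5:149100501-149163900 and chr5:36304301-36386050), 3.54% on chromosome 4 (chr4:154261301-154307850), 3.60% on chromosome 17 (chr17:32049001-32092050) and 3.94% on chromosome 8 (chr8:13267101-13328050). Their median heights, from 33.2 to 40.6, were below the domain median of 40.9.

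**Figure D5:**
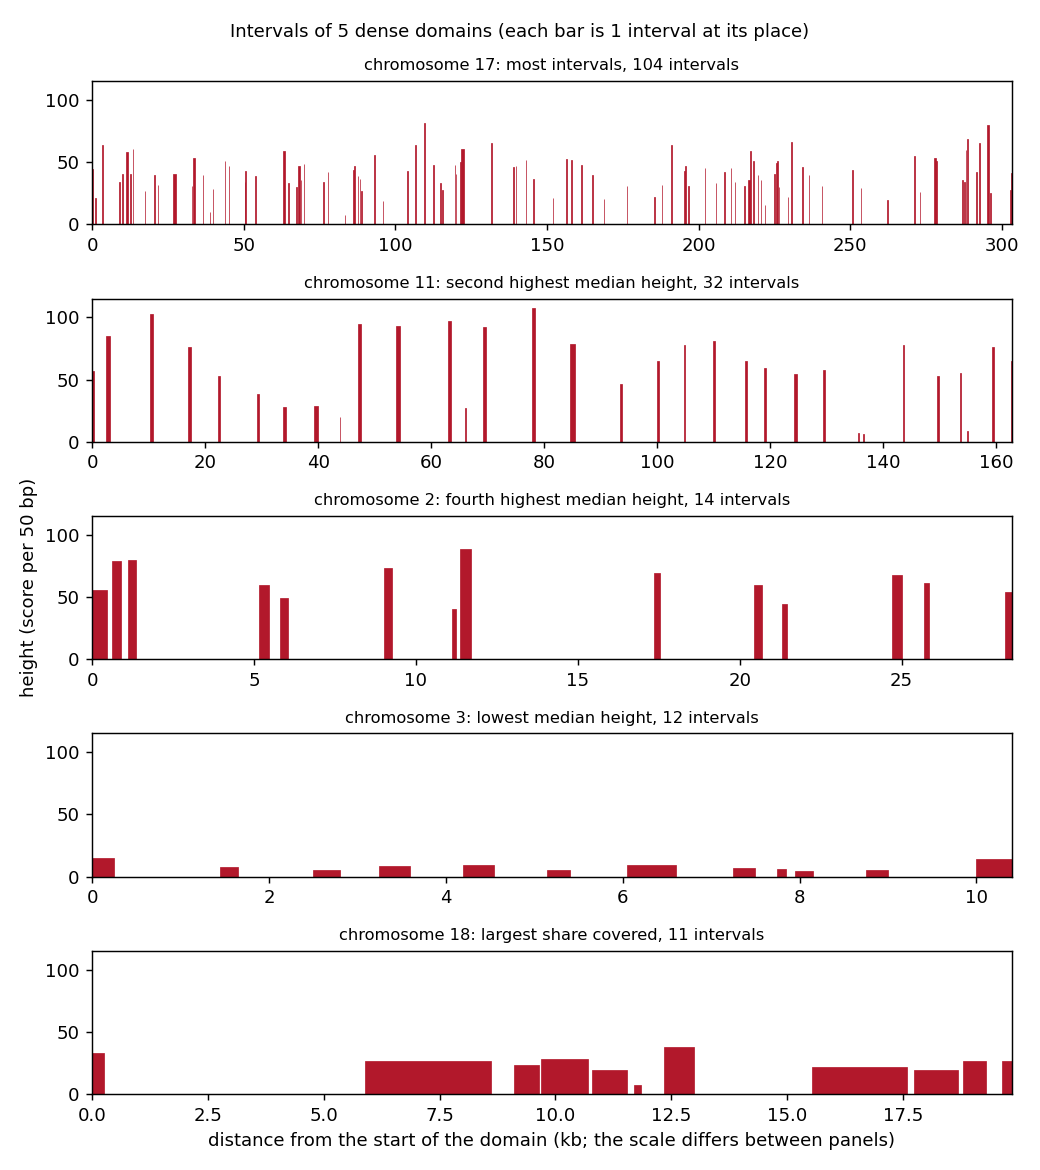
Height of each interval (score per 50 bp, vertical axis) against its distance from the start of its domain (kb, horizontal axis, scaled per panel) in 5 dense domains. The fullest domain mixes high and low intervals over 303 kb. The chromosome 11 domain is the one with the second highest median. Of its 32 intervals, many at wide steps, 19 stand above 57.1 and 3 are low. All 14 intervals on chromosome 2 reach 40 or more, and the chromosome 3 domain stays below 14.9. The intervals of the chromosome 18 domain cover 49.1% of it and stay at or below 38.3.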

How the data were processed

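The TCF1 ChIP library had 1 processed file, a list of intervals with a score deposited by the authors. Per the submitters' processing notes the build was mm9. The sources used here do not give the aligner or peak caller, any threshold, the part the input played or what the score measures. All starts lay on a 50 bp grid and all ends 1 bp short of it (0 exceptions), so ends were read as inclusive. Intervals on autosomes were sorted and joined as described, with pandas 2.3.3 and numpy 2.4.6 in Python 3.11.15 (scipy 1.17.1 for intervals, matplotlib 3.10.9 for plots). The hotspot was left out by start after joining. Intervals of medians are distribution-free order-statistic intervals, those of a ratio set opposite ends of 2 such intervals against each other, and shares have exact Clopper-Pearson intervals (95%). No p-value was computed. Joining was tested on simulated data. Named domains were the 10 with the most intervals, the fullest on each autosome, and the 5 highest and lowest by median height and by share covered. The class limits of height and the rules were chosen with earlier results of these data known. The gene and promoter tables at hand were of GRCm38, another build, so genes and sequences were not analysed here. The alternatives changed the joining distance, the least number of intervals, the choice by score, the merging of close neighbours, the reading of ends, the hotspot, extreme heights, the width, the comparison class and each autosome in turn.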

Additional observations from a re-analysis of the deposited data

How the results depend on the processing

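Of 81 alternative values, 39 stayed close to the value reported (within 1.5 times for counts, otherwise inside its 95% interval) and 42 moved. A change of direction was looked for in the height ratio only, and 0 were found. The height ratio of members to singles stayed above 1 throughout, between 1.14 and 1.60. Joining within 5000 bp gave 563 domains, 8254 members, a median height of 42.8, a ratio of 1.47, a width difference of 50 bp, a gap of 1100 bp and coverage of 15.9%. Joining within 20 kb gave 39919 members, 39.7, 1.60, 2800 bp and 5.17%. At least 8 intervals gave a height of 40.8, a gap of 1850 bp and 9.13%, at least 15 gave 585 domains, 41.8, 1650 bp and 9.86%, and at least 20 gave 329 domains, 10174 members, 42.2, a ratio of 1.56, 1500 bp and 10.4%. The upper 50% by score gave 409 domains, 6230 members, 48.6, a ratio of 1.14, 1850 bp and 11.6%; this choice removes low intervals by construction. Merging neighbours within 1 kb first gave 673 domains, 10412 merged members, 34.8 (the merged width includes gaps), a ratio of 1.32, a width difference of 50 bp, 3150 bp and 13.3%. The ratio was 1.47 at 200 bp, 1.23 against singles in the same windows, 1.19 against domains of 2 to 9 and 1.59 for the score itself. Leaving out each autosome in turn moved none of its 133 values beyond these limits. For the counts this was fixed in advance, because no autosome held more than 2499 of the 21002 members or 142 of the 1147 domains. Exclusive ends, the hotspot, extreme heights and the border domains (left out after the data were seen) moved none. No paired analysis was possible because a single ChIP library was listed. The unknown depth limits statements on low intervals, and TCF1 bound below the unknown threshold would not be listed.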

Other observations

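The deposited list was not in genomic order, and what set its order is not given in the sources used here. Across autosomes the place in the list went with width (Spearman's rho -0.75 over 101290 intervals) more than with score (-0.46) or height (-0.09). Members came later than singles, with a median place of 57576 against 46919. Of the members 4.81% were among the first 10000 rows, against 8.88% of intervals in domains of 2 to 9 and 13.8% of singles.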
